A study of Mus musculus with 4 samples.

Results

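Keratin genes are the genes whose mouse symbol, reached through the RefSeq accession printed for each array probe, is Krt followed by a number, with the keratin-associated protein genes (Krtap) left out. They numbered 53 genes with 64 probes, out of 21154 named genes and 55681 probes on the array. The annotation holds 55 such symbols, and 2 of them (Krt83 and Krt8-ps) were matched to no probe. The rule itself uses symbols and no measured value. The genes were divided by where they are best known into simple (6), basal (4), stratified (18) and hair follicle keratins (24), with Krt222, a keratin-related gene outside both types, set apart.

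Messenger RNA had been measured in primary thymospheres, which are spheres that form when dissociated thymus cells are cultured where they cannot attach. The groups were spheres from C57Bl6/N mice aged 5 to 6 weeks (adult, 2 samples) and from C57Bl6/N embryos at embryonic day 14.5 (embryonic, 2 samples), and the labels name no genetic change or drug in either. Both were grown for 7 days in ultra-low-attachment dishes in a medium with B27, hydrocortisone, insulin, EGF and bFGF, with fresh medium on day 5, collected on filters and lysed in TRIzol. From each sample 25 ng of RNA was labelled with Cy3 and hybridised to a 1-colour Agilent array of its own, and all 4 arrays lay on 1 slide. Position on the slide and group cannot be told apart, the number of arrays limits the precision, and the labels leave unsaid which replicates are biological and which technical, so a p-value here reflects the spread of these samples alone, which may be technical.

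Keratins are the intermediate filament proteins of epithelial cells. Each filament is built from obligate pairs of an acidic type I and a basic type II chain, so cells co-express partners: Krt8 with Krt18 or Krt19 in simple epithelia, Krt5 with Krt14, Krt15 or Krt17 in basal cells of stratified epithelia, Krt6 with Krt16 or Krt17 in stressed and appendage epithelium, and Krt4 with Krt13 in the lining of the oesophagus and tongue. In the adult thymus Krt8 and Krt18 are known from the cortical epithelium and Krt5 and Krt14 from the medullary epithelium. Most type I genes sit together on mouse chromosome 11 and the type II genes on chromosome 15, where type I Krt18 lies beside Krt8: 27 members lay on chromosome 11 and 26 on chromosome 15.

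The stretch of 150 bases before the RefSeq transcription start was read for 36 of the 53 keratin genes (GRCm38.p6). It is shown for 3 genes that rose in embryonic spheres, for Krt14, the partner of Krt5 that fell, and for 2 hair keratins that were not well above background there. Capitals mark the motifs searched on both strands, N being any base. The TATA box was searched as TATAAA. The letters of the CCAAT box are its name. The GC box was searched as GGGCGG. The AP-1 motif was searched as TGANTCA, and the AP-2 motif as GCCNNNGGC. Matches to different motifs overlapped in 1 of the 36 stretches.
Krt5 (chr15:101712906-101713055, minus strand): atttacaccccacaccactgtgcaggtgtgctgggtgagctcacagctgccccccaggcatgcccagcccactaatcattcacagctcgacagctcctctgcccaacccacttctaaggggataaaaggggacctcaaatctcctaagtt
Krt18 (chr15:102028066-102028215, plus strand): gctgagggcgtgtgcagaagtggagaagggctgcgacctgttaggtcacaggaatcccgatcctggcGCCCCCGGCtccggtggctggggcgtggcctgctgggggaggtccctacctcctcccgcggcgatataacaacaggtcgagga
Krt42 (chr11:100269952-100270101, minus strand): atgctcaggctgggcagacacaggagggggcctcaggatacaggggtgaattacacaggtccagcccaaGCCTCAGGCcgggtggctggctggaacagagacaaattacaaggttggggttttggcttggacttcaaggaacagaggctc
Krt14 (chr11:100206031-100206180, minus strand): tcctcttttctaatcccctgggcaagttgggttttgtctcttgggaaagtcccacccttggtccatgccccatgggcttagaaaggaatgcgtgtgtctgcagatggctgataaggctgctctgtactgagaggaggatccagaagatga
Krt26 (chr11:99337966-99338115, minus strand): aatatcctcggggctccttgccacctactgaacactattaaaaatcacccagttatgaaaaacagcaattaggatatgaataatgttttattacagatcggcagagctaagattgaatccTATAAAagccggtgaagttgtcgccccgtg
Krt28 (chr11:99374904-99375053, minus strand): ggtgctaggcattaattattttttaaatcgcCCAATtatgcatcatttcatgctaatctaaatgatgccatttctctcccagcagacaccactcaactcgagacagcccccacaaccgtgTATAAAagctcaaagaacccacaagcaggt

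TATAAA stood in 15 of the 36 keratin stretches (41.7%), against 8.08% of 27020 stretches of the same length over all genes. Krt26 and Krt28, keratins of the inner root sheath of the hair, held it with its first base 30 bases before the start. Among keratin genes that changed, 0 of 6 that rose and 2 of 8 that fell held TATAAA. Other forms of the TATA box were not searched, so a stretch without TATAAA may still hold one. The GC box went the other way, with 2 of 36 keratin stretches (5.56%) against 28.6% of all. The CCAAT box was in 11 of 36 (30.6%, all genes 25%), the AP-1 motif in 1 (2.78%, all genes 4.33%) and the AP-2 motif in 5 (13.9%, all genes 9.48%), and 3 of these 5 stretches belong to Krt18, Krt42 and Krt7, which rose. A match is a run of letters and shows no binding.

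Signals are given as log2 of a probe's processed signal with the array's 75th percentile over probes subtracted, so that 0 is the level of that percentile and levels of different probes are not compared. In each run of 4 values the order is adult 1, adult 2, embryonic 1 and embryonic 2. Testing asked for a probe well above background on both adult arrays, on both embryonic arrays, or on all. Differences are embryonic minus adult from a limma fit over all 13667 tested genes, with Benjamini-Hochberg adjusted p and a threshold of 0.05, and rose or fell is used only of genes past it. The share of spots well above background was 71.6% on adult 1, 49.6% on adult 2, 48.3% on embryonic 1 and 35.7% on embryonic 2. Adult array 2 had 2756 spots marked as outliers, against 95 to 185 on the others, and 4 keratin probes (Krt13, Krt15, Krt27 and Krt87) lost their value there.

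Of the 53 keratin genes, 34 were tested, 11 rose (32.4%) and 11 fell (32.4%) in embryonic spheres. Of all tested genes 52.4% were called, 35.0% as risen and 17.4% as fallen, so the share of keratins that rose was near the background. Of the 11 that fell, 9 were tested only through the adult arrays, their probe being dim on both embryonic ones, so they could pass only as lower and their share is not read against the background. The median log2 difference was 0.03 for the tested keratins and 0.76 for all tested genes. That general shift depends on the scaling: when arrays were centred instead on their median over tested genes, 4 keratins rose (all genes 7.65%) and 12 fell (all genes 20.3%). Of 21 keratins well above background on all 4 arrays, 11 rose and 2 fell, with a median of 1.21, against 42.0% risen, 2.43% fallen and a median of 0.93 over 9602 such genes. With either adult array left out none of the 22 keratin calls passed in limma, nor did any other gene, while 5603 genes without adult 1 and 6019 without adult 2 had an unadjusted p under 0.05.

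Counted by probe, 37 of the 64 keratin probes were tested, 10 rose (all tested probes 22.2%) and 11 fell (24.9%). Of the 53 genes 42 had 1 probe and 11 had several. Only Krt5, Krt10 and Krt13 had more than 1 tested probe. None of these had more than 1 called probe, so agreement between called probes of a gene could not be judged.

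**Figure D1:**
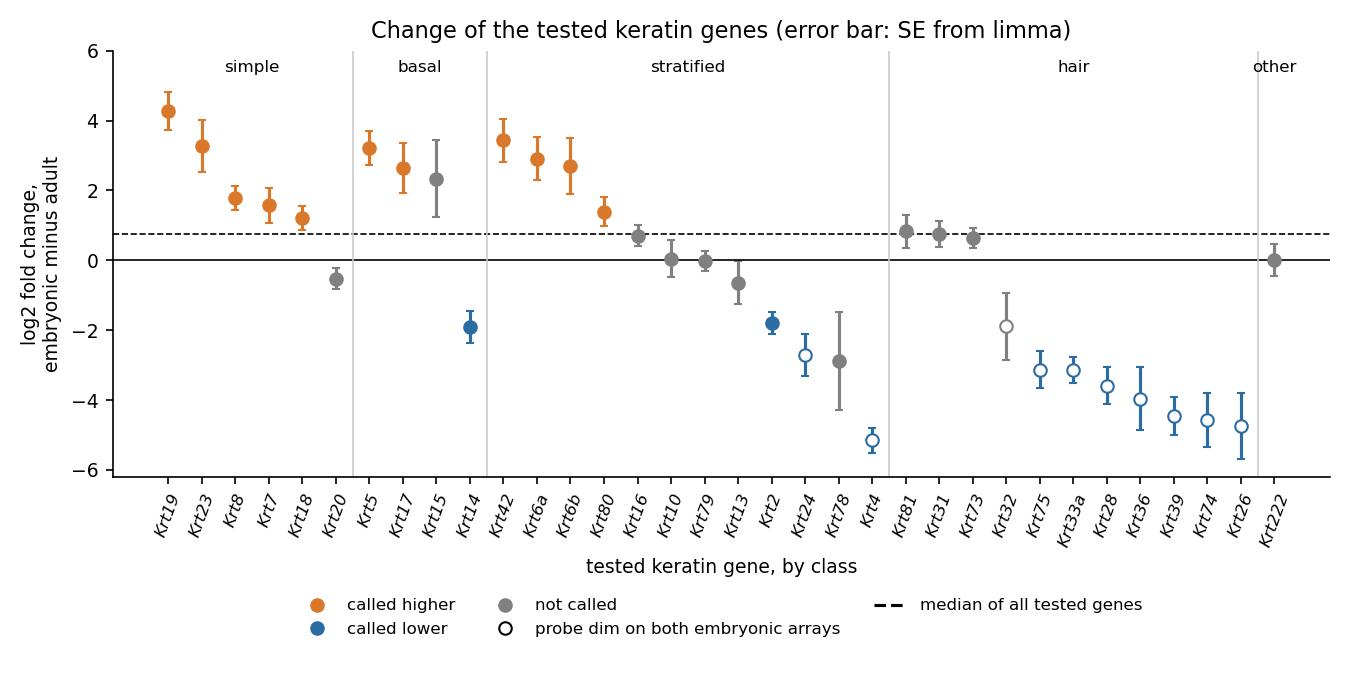
Log2 difference (embryonic minus adult, limma, error bars SE, 2 arrays per group) of the 34 tested keratin genes by class, with the median of all tested genes, 0.76, dashed; open circles are genes whose probe was dim on both embryonic arrays, where the plotted value is taken against background. Genes that rose lie in the simple, basal and stratified classes, and each hair keratin that fell is an open circle.

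Of the simple keratins, all 6 were tested and above background on every array, 5 rose and 0 fell in embryonic spheres. Over all genes above background on every array 42.0% rose and 2.43% fell. With centring on the tested genes 1 rose (Krt19) and 1 fell (Krt20). In bulk samples fewer cells of a type and less RNA per cell cannot be told apart, here and in each result that follows. Krt19, a small type I keratin found in simple and progenitor epithelia, had values of 2.05, 1.43, 5.35 and 6.71. Both embryonic arrays were far above both adult arrays. Krt19 rose by 4.28 (SE 0.54, limma adjusted p = 0.0102), a 19.5-fold difference, and also passed with centring on the tested genes (3.67, adjusted p = 0.0101).

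Krt8 and Krt18, the main pair of simple epithelia, moved by less. Krt8 had values of 4.72, 4.27, 6.03 and 6.52 and rose by 1.78 (SE 0.35, adjusted p = 0.0165). Krt18 had values of 7.30, 6.78, 8.11 and 8.39 and rose by 1.21 (SE 0.33, adjusted p = 0.0340). Groups did not overlap for either gene, but neither call held with centring on the tested genes (adjusted p = 0.0716 for Krt8 and 0.257 for Krt18). Krt7, a type II keratin of ducts and glands, had values of 3.44, 2.61, 4.09 and 5.12. It rose by 1.58 (SE 0.50, adjusted p = 0.0474), not past the threshold with that centring (adjusted p = 0.222).

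Krt23, a type I keratin of simple epithelia, had values of -0.13, -1.05, 1.68 and 3.70. The embryonic arrays lay apart by more than 2 log2 units, with the lower still above both adult arrays. Krt23 rose by 3.28 (SE 0.75, adjusted p = 0.0217; 0.0581 with centring). Krt20, known from intestinal epithelium and the surface cells of the bladder, was the exception among simple keratins, with values of 1.44, 1.42, 0.70 and 1.11. Adult arrays were above embryonic ones, and the difference of -0.53 (SE 0.31, adjusted p = 0.192) missed the threshold. With centring it passed as lower (-1.14, adjusted p = 0.0471), and centring on all probes turned the sign.

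**Figure D2:**
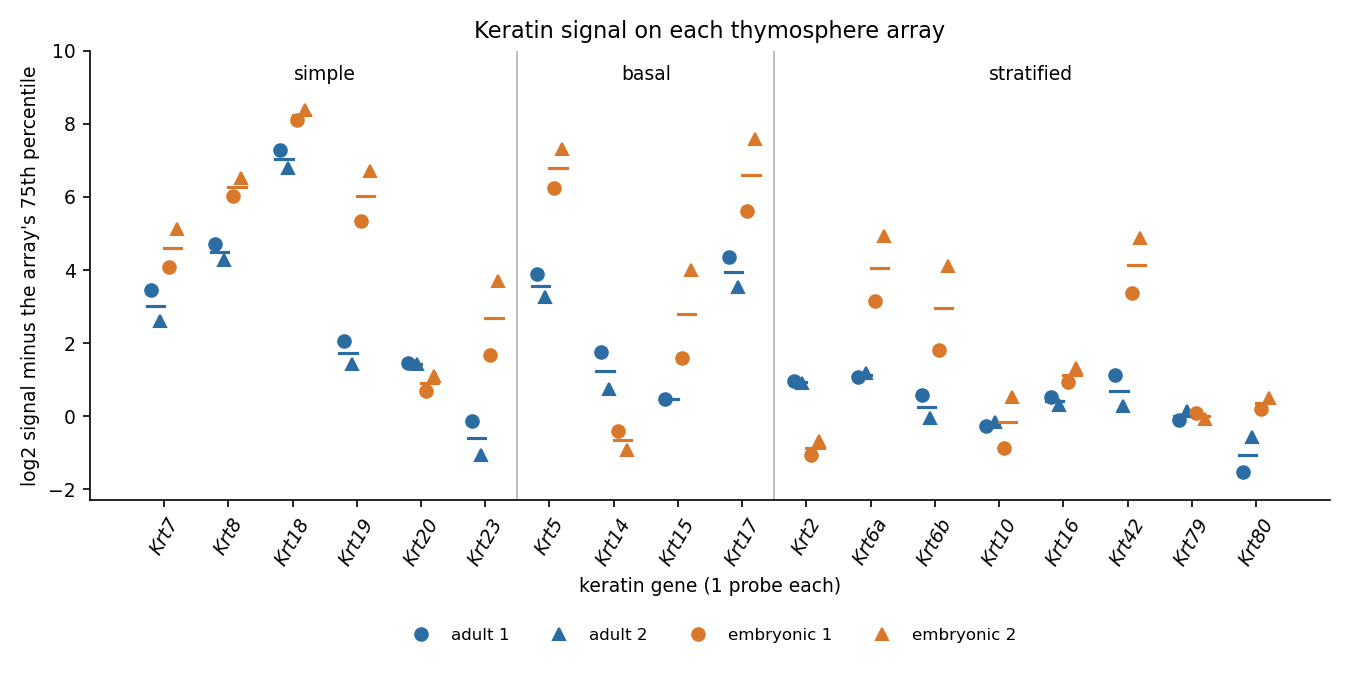
Log2 signal minus the array's 75th percentile for the simple and basal keratins and for the stratified keratins well above background on all 4 arrays; points are single arrays and short lines group means. Krt19 and Krt5 show wide gaps between adult and embryonic arrays, and Krt14 and Krt2 are the genes with a gap in the other direction that passed the test.

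The basal keratins split. Krt5, the type II keratin of basal cells, had values of 3.89, 3.25, 6.25 and 7.32. It rose by 3.22 (SE 0.48, adjusted p = 0.0112), 9.30-fold, and passed with centring (2.60, adjusted p = 0.0186). A second Krt5 probe had values of 0.38, 0.32, 1.06 and 2.22, in the same order of groups, with a smaller difference of 1.29 (SE 0.48, adjusted p = 0.0744 over all tested probes).

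Krt14, the usual type I partner of Krt5, went the opposite way with values of 1.76, 0.74, -0.40 and -0.92. Both adult arrays were above both embryonic arrays, and all 4 were well above background. Krt14 fell by 1.91 on the log2 scale (SE 0.46, adjusted p = 0.0240), and by 2.52 with centring (adjusted p = 0.0197). With centring on all probes its difference was -0.68 and missed the threshold (adjusted p = 0.220).

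Krt17, a type I keratin of basal and appendage cells that is induced by injury, had values of 4.37, 3.53, 5.61 and 7.58. It rose by 2.64 (SE 0.72, adjusted p = 0.0333; 0.102 with centring). Krt15, another type I keratin of basal cells, had 0.47 on adult 1, no value on adult 2 and 1.60 and 4.01 on the embryonic arrays. Its difference of 2.33 (SE 1.10, adjusted p = 0.138) rests on 1 adult array and missed the threshold. With the outlier spot of adult 2 kept, it was 1.86 (SE 0.85, adjusted p = 0.108). Krt15 passed as higher with an intensity trend in the fit (adjusted p = 0.0407) and with centring on all probes (3.75, adjusted p = 0.000359).

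Of 18 stratified keratins 12 were tested, 4 rose (33.3%) and 3 fell (25%), against 35.0% and 17.4% of all tested genes. The share that rose was thus near the background. Of those that fell, Krt4 and Krt24 were dim on both embryonic arrays and could pass only as lower. The genes that rose are known from stressed, nail and differentiating epithelium. Krt6a, a type II keratin of stressed epidermis and the hair companion layer, had values of 1.07, 1.19, 3.15 and 4.93. It rose by 2.91 (SE 0.62, adjusted p = 0.0188), and passed with centring (adjusted p = 0.0488). Krt6b, its close relative, had values of 0.57, -0.05, 1.81 and 4.11. By this probe it rose by 2.70 (SE 0.80, adjusted p = 0.0395, and 0.116 with centring). A second, dimmer Krt6b probe (-1.24, -2.37, -2.18 and -2.80) was well above background on adult 1 and embryonic 1 only and was not tested. On it embryonic 1 lay below adult 1. Krt6a and Krt6b are near-identical neighbours, as Krt33a and Krt33b are, and Krt16, Krt17 and Krt42 are close relatives; how far their probes can tell them apart was not tested.

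Krt42, a mouse type I keratin of nail and stratified epithelium, had values of 1.13, 0.27, 3.38 and 4.89. It rose by 3.43 (SE 0.61, adjusted p = 0.0140), 10.8-fold, and passed with centring (2.82, adjusted p = 0.0293). Krt80, a type II keratin of differentiating epithelia, had values of -1.53, -0.57, 0.20 and 0.49, low but well above background throughout. It rose by 1.40 (SE 0.42, adjusted p = 0.0414; 0.185 with centring).

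Krt4, the type II keratin of internal stratified linings, had the largest bound among all keratins, with values of 1.02, 1.65, -3.96 and -3.68. Its embryonic signals were not well above background, so only a bound is available: it was at least 12.3-fold lower in embryonic spheres (adjusted p = 0.00984). Such bounds set the adult mean against the embryonic mean after each dim embryonic signal was raised, where it lay lower, to that array's detection floor, the faintest probe still well above background. Krt24, a suprabasal type I keratin, had values of 0.28, -0.17, -3.49 and -1.83 and was at least 5.07-fold lower (adjusted p = 0.0208). Krt2, a type II keratin of the upper epidermis, was by its tested probe well above background on every array, with 0.95, 0.91, -1.05 and -0.67. By that probe it fell by 1.79 (SE 0.31, adjusted p = 0.0133). A second Krt2 probe (-4.06, -1.76, -4.99 and -3.53) was not well above background on any array and was not tested. With centring on all probes, Krt2 kept its direction at -0.56 and missed the threshold (adjusted p = 0.292).

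The type I partners Krt16, Krt10 and Krt13 did not pass the test. With centring on all probes Krt16 (1.94, adjusted p = 0.00162) and Krt10 (1.28, adjusted p = 0.0342) passed as higher. Krt16, the partner of Krt6 in stressed epidermis, had values of 0.53, 0.31, 0.94 and 1.33, a difference of 0.71 (SE 0.31, adjusted p = 0.107). Krt10, the suprabasal partner of Krt1, had values of -0.26, -0.17, -0.87 and 0.53, with overlapping groups and a difference of 0.05 (SE 0.52, adjusted p = 0.939). A second Krt10 probe, also well above background on every array, had values of -0.79, -1.20, 0.80 and -0.78. Its difference was 1.00 (SE 0.59, limma adjusted p = 0.199 over all tested probes), so the size of the Krt10 difference depends on the probe. Krt13 had probes that differed in sign. The probe with all 4 values gave -1.31, -1.78, -3.01 and -1.35 (difference -0.64, SE 0.61, adjusted p = 0.395), and the other, without adult 2, gave 1.81, 2.33 and 3.70 (difference 1.20, adjusted p = 0.214 over all tested probes). The direction of Krt13 is therefore not settled. Krt78 and Krt79, named here after their values were seen, had differences of -2.89 (SE 1.41, adjusted p = 0.133, above background on 1 embryonic array) and -0.02 (SE 0.30, adjusted p = 0.964).

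Hair follicle keratins were above background on more adult than embryonic arrays. Of 24 such genes, 75% were well above background on adult 1, 45.8% on adult 2, 25% on embryonic 1 and 12.5% on embryonic 2. The same shares over all named genes were 81.4%, 59.1%, 63.5% and 52.3%. For the 18 stratified keratins they were 77.8%, 66.7%, 55.6% and 55.6%. Of the 11 hair keratins tested, 0 rose and 7 fell, but all 7 were tested only through the adult arrays and could pass only as lower, so the count supports nothing about the class. The 3 hair keratins above background on all 4 arrays had 0 calls and a median difference of 0.75. The folds of the 7 are bounds, and Krt28, Krt33a and Krt75 lost their calls under normexp background correction (adjusted p = 0.101, 0.107 and 0.241).

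Among keratins of the inner root sheath, Krt26 had values of 1.16, 1.03, -5.11 and -2.19 and was at least 10.4-fold lower in embryonic spheres (adjusted p = 0.0172). Krt28 had values of -0.70, -1.07, -5.18 and -3.76 and was at least 2.65-fold lower (adjusted p = 0.0114). Krt74, which RefSeq lists as a transcribed pseudogene in mouse, had values of 0.73, 0.15, -5.25 and -3.00 and was at least 6.64-fold lower (adjusted p = 0.0132). In all 3 the adult arrays lay close together, while the embryonic values are background readings without an order of their own.

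Among keratins of the hair and nail shaft, Krt39 had values of -0.04, 0.08, -5.18 and -3.71 and was at least 4.95-fold lower (adjusted p = 0.0100). Krt33a had values of -1.07, -0.33, -3.96 and -3.73 and was at least 3.0-fold lower (adjusted p = 0.00991). Krt36 had values of 0.47, 1.43, -4.28 and -1.74, and by this probe was at least 9.43-fold lower (adjusted p = 0.0213). A second, dimmer probe of Krt36 was well above background on embryonic 1 only and was not tested. Krt75, of the companion layer, had values of -1.5, -1.35, -5.25 and -3.85 and was at least 1.82-fold lower (adjusted p = 0.0129). The other 4 tested hair keratins, named after their values were seen, were not called: Krt32, dim in embryonic spheres, at least 1.48-fold lower (adjusted p = 0.144), Krt31 at 0.75 (0.138), Krt73 at 0.64 (0.115) and Krt81 at 0.83 (0.194). Krt31, Krt73 and Krt81 passed as higher with centring on all probes (adjusted p = 0.00208, 0.00236 and 0.00145).

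Genes of sensory cells showed a like order of detection across the arrays. Among 1380 receptor genes for odours, pheromones, taste and trace amines, detection was 53.5% on adult 1, 24.9% on adult 2, 6.67% on embryonic 1 and 2.46% on embryonic 2. Of 330 receptor genes tested 274 were called lower while dim in embryonic spheres. Among 51 Krtap genes, which encode proteins of the hair shaft, detection was 51%, 27.5%, 37.3% and 23.5% in the same order. Of 16 tested Krtap genes 3 rose (18.8%, all tested genes 35.0%) and 2 fell (12.5%, all tested genes 17.4%). The part of this difference in low-level detection in the hair keratin result was not tested.

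**Figure D3:**
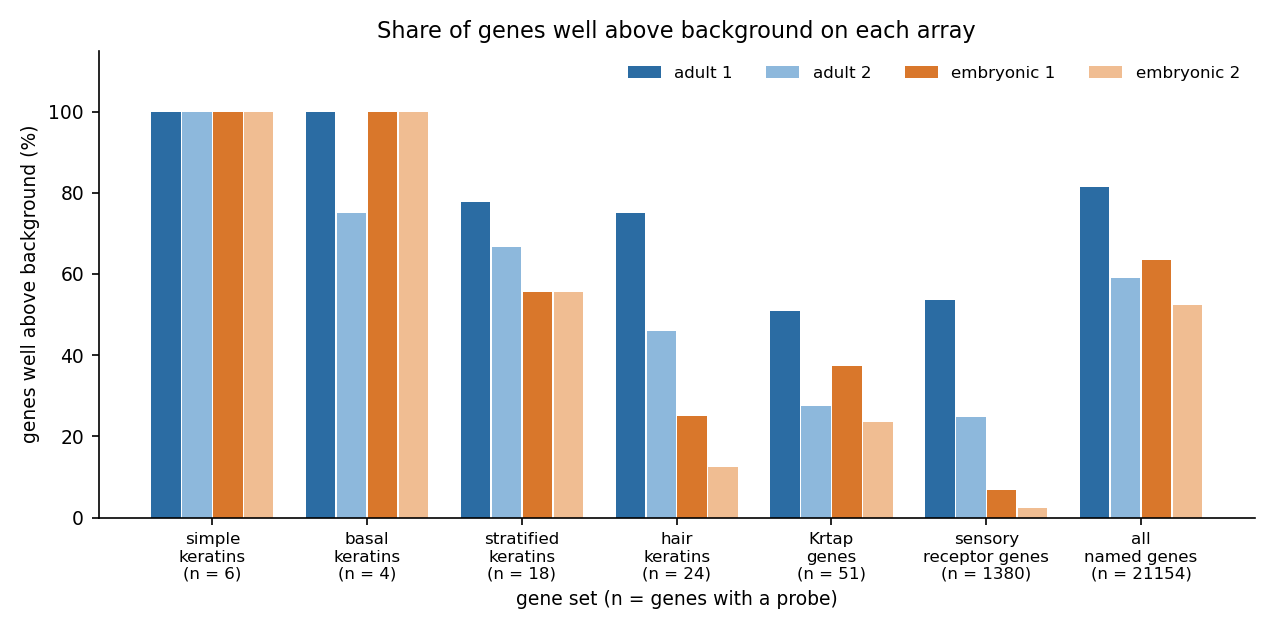
Percent of genes well above background on each array, for the keratin classes, Krtap genes, sensory receptor genes and all named genes (n is genes with a probe). Hair keratins go from 75% on adult 1 to 12.5% on embryonic 2, and sensory receptor genes from 53.5% to 2.46%.

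The 19 keratin genes that were not tested were Krt1, Krt9, Krt12, Krt25, Krt27, Krt33b, Krt34, Krt35, Krt40, Krt71, Krt72, Krt76, Krt77, Krt82, Krt84, Krt86, Krt87, Krt88 and Krt90. They include the epidermal keratins Krt1, Krt76, Krt77 and Krt9 and the corneal Krt12. For 9 of the 19 no probe was well above background on any array. Krt222 was by its tested probe well above background on all arrays, with 4.66, 5.79, 5.14 and 5.33. The difference was 0.01 (SE 0.45, adjusted p = 0.980). A second Krt222 probe (-4.02, -3.32, -4.98 and -3.52) was not well above background on any array and was not tested.

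Type I and type II genes did not stand apart as a whole. Of 19 type I genes tested 5 rose (26.3%) and 7 fell, with a median difference of -0.53. Of 14 type II genes 6 rose (42.9%) and 4 fell, with a median of 0.74. Over all tested genes 35.0% rose. Falls and medians include genes dim on both embryonic arrays, which could pass only as lower. Of 10 type I genes well above background on all 4 arrays 5 rose and 1 fell (median 0.98). Of 10 such type II genes 6 rose and 1 fell (median 1.49), against 42.0% and 2.43% of all such genes (median 0.93). Within single partnerships the difference of the log2 signals on one array is free of the scaling of that array, and only its shift between the groups was read. Of 14 partner pairs 11 had both genes tested, and 10 are described; Krt4 minus Krt13 is left out because Krt4 was dim on both embryonic arrays. With 2 arrays against 2, the exact two-sided permutation test cannot give less than p = 0.333, so these shifts are descriptions.

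Krt5 minus Krt14 was 2.13, 2.51, 6.65 and 8.24, a shift of 5.13 towards Krt5 in embryonic spheres (exact p = 0.333). The gap within each group was far smaller than the gap between groups. Krt5 against Krt17 shifted by 0.57 and against Krt15 by 0.57, the latter with 1 adult array, and both changed sign when the mean of a gene's probes was used. In simple epithelia, Krt8 minus Krt18 was -2.58, -2.52, -2.08 and -1.87, a shift of 0.57 (exact p = 0.333), the closest to joint movement among the simple pairs. Against Krt19 the type II partners fell behind: Krt8 minus Krt19 shifted by -2.51 and Krt7 minus Krt19 by -2.70.

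For the stress keratins, Krt6a minus Krt16 was 0.53, 0.87, 2.22 and 3.60, a shift of 2.20, and Krt6b minus Krt16 shifted by 1.99. Krt6a minus Krt17 was -3.30, -2.34, -2.45 and -2.65, with overlapping groups and a shift of 0.27 (exact p = 1). Krt2 minus Krt10 shifted by -1.84, with the Krt10 probe whose difference was 0.05. Groups were apart in 8 of the 10 pairs, 5 with embryonic and 3 with adult arrays above. Krt5 minus Krt15 could not be judged, since adult 2 had no value. The share among pairs of other genes was not computed, so nothing is read from this count.

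**Figure D4:**
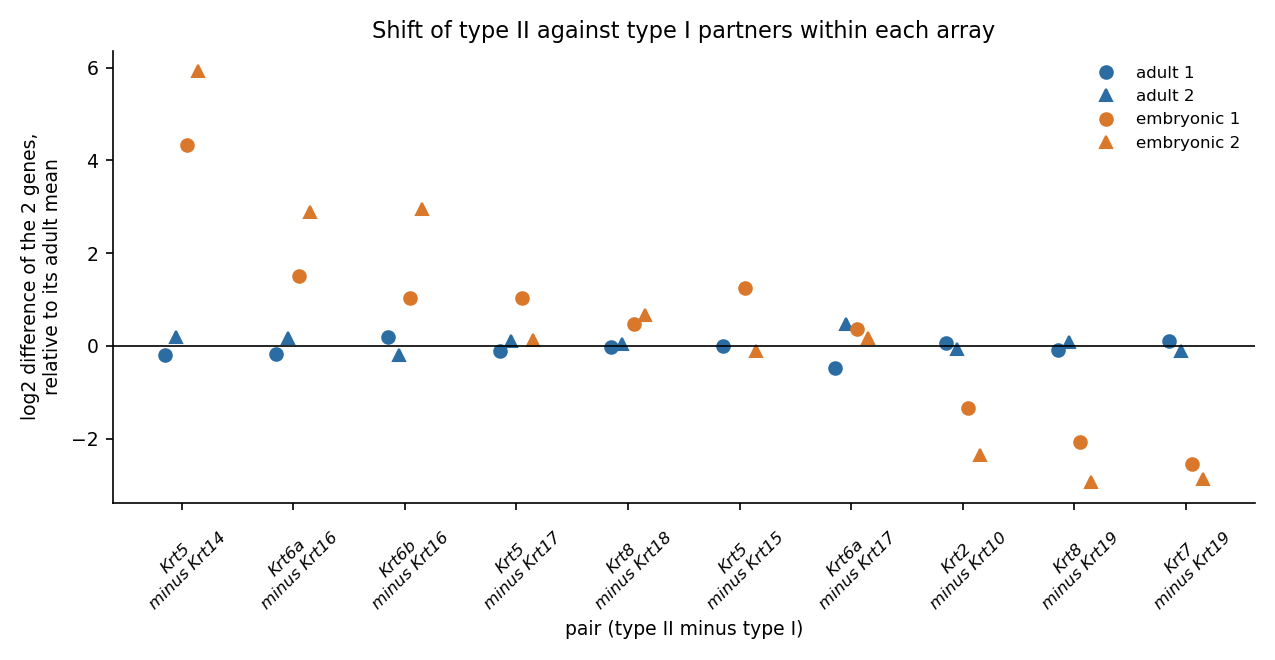
Difference of the log2 signals of type II and type I partners on each array, relative to the adult mean of that pair, ordered by the shift. Krt5 minus Krt14 lies at one end with a shift of 5.13 and Krt7 minus Krt19 at the other with -2.70, while Krt6a minus Krt17 overlaps.

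Position along the chromosomes showed runs of neighbours with the same call (gene order of GRCm38.p6). On chromosome 15 Krt6b, Krt6a and Krt5 are consecutive keratin genes and all rose, as did the pair of Krt8 and Krt18 at the end of the cluster and the pair of Krt80 and Krt7 at its start. On chromosome 11 Krt17 and Krt42 are neighbours and both rose, 2 places from Krt14, which fell. Krt75, next to Krt6b, was called lower, but its probe was dim on both embryonic arrays and could pass only as lower. It is therefore not read as a neighbour going the opposite way. Genes that fell or were not tested fill most of the stretch from Krt24 to Krt36, where Krt23 is the only one that rose. Those that fell there all had probes dim on both embryonic arrays and could pass only as lower.

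**Figure D5:**
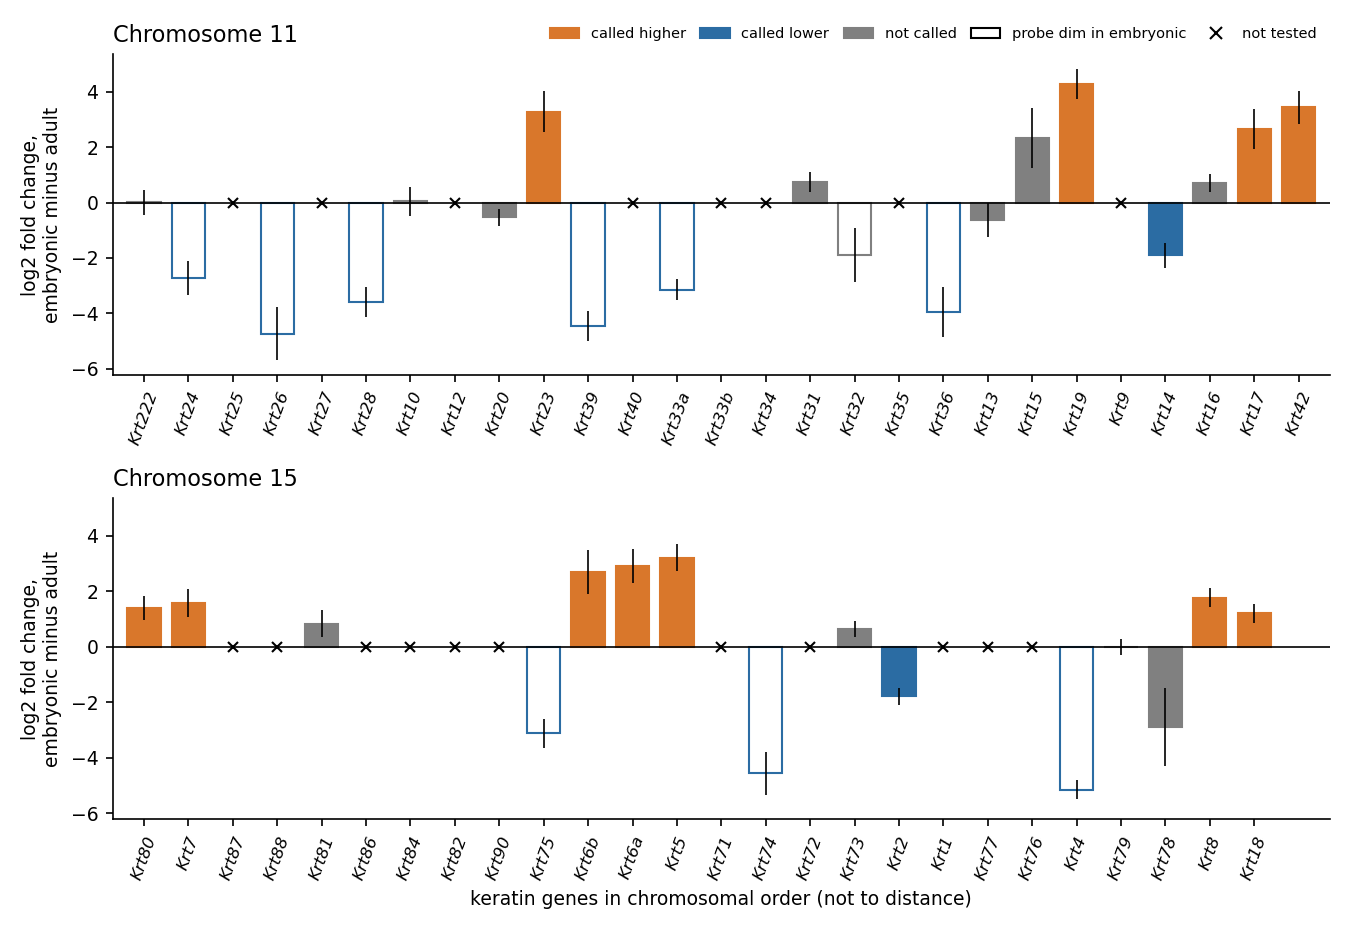
Log2 difference (bars, SE as lines) of keratin genes in chromosomal order on chromosome 11 (27 genes) and chromosome 15 (26 genes), not drawn to distance; open bars are genes whose probe was dim on both embryonic arrays, where the value is taken against background, and crosses genes that were not tested. Krt6b, Krt6a and Krt5 form a run of 3 genes that rose.

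The arrays of one group differed too. Of the 21 keratins well above background on all arrays, 10 had the order adult 2, adult 1, embryonic 1, embryonic 2 from low to high, and 4 had the same order with the adult arrays exchanged. Embryonic 2 was thus the highest array in these 14 genes. The mean over the 11 risen keratins was 2.44 on adult 1, 1.97 on adult 2, 4.15 on embryonic 1 and 5.43 on embryonic 2. With embryonic 2 left out the keratins Krt7, Krt14, Krt17, Krt18 and Krt80 lost their calls. Krt13, Krt32 and Krt78 passed as lower there, with differences of -1.47, -3.35 and -5.07, each by a probe that was dim on embryonic 1. With embryonic 1 left out 10 rose and 11 fell, with Krt18 and Krt80 lost and Krt15 gained. Over the 33 keratins with 4 values, embryonic arrays were both above adult arrays in 14 (all genes 61.1%) and both below in 14 (all genes 22.9%). The genes below include those tested only through the adult arrays, with a probe dim on both embryonic ones. Neither count is therefore read against the background.

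Genes that act with keratins in epithelial cells were fitted in the same comparison. Of 17 tested plakins and desmosomal proteins, which tie keratin filaments to cell junctions, 11 rose (64.7%) and 1 fell, with a median of 1.79, against 35.0% risen and a median of 0.76 over all tested genes. Evpl (envoplakin) rose by 4.33 (adjusted p = 0.0104), Ppl (periplakin, above background on 1 adult array) by 4.52 (0.0116), Eppk1 (epiplakin) by 3.54 (0.00984) and Perp, a desmosomal membrane protein, by 3.25 (0.0166). Dsc3, a desmosomal cadherin, was at least 5.02-fold lower (adjusted p = 0.0235). Of 20 tested regulators known to act on keratin genes 9 rose (45%) and 0 fell. Among the 15 above background on all 4 arrays 6 rose (40%), near the 42.0% of all such genes. Klf5 rose by 3.04 (adjusted p = 0.0126), Grhl1 by 2.78 (0.0166), Elf3 by 3.60 (0.0176, above background on 1 adult array) and Tfap2a, by a probe dim on both adult arrays, was at least 3.21-fold higher (0.0136).

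Markers of the cell types in the spheres were measured on the same arrays. Of 10 tested thymic epithelial markers, a list that shares Foxn1 and Trp63 with the regulators, 6 rose (60%) and 0 fell. Over all tested genes 35.0% rose and 17.4% fell. Among the risen were the pouch transcription factors Pax1 (3.20, adjusted p = 0.00984) and Pax9 (3.20, 0.00984, above background on 1 adult array). Plet1 (2.80, 0.0128) and the adhesion molecule Cdh1 (2.04, 0.0155) rose too. Ccl25, without a value on adult 2, was the only tested marker with a negative difference (-1.69, 0.0906). The mean log2 signal of the 9 with 4 values was 0.88, 0.52, 2.47 and 3.07 on the arrays in the usual order. Psmb11, Aire and Ly75, markers of mature thymic epithelium, were not tested because none met the rule for testing. The part of epithelial content in the keratin result was not tested.

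Epcam, a general epithelial surface marker, had values of 1.35, 0.35, 1.79 and 1.69 and a difference of 0.89 (SE 0.42, adjusted p = 0.123). That was the smallest difference among the 9 thymic epithelial markers with 4 values (Cdh1 2.04). Shifts read against any other of them would be lower than those given here. Read against Epcam on the same array, without a test and chosen after the data were seen, 9 of the 17 simple, basal and stratified keratins well above background on all arrays were higher on both embryonic arrays, 4 were higher on both adult arrays and 4 overlapped. Read the same way, of 9601 genes that every array measured above background, 12.3% were higher on both embryonic arrays and 15% on both adult arrays. Krt19 shifted by 3.39, Krt42 by 2.54, Krt23 by 2.38 and Krt5 by 2.32 relative to Epcam. Krt18 shifted by 0.32 with overlapping groups, and Krt14 by -2.80. Krt8 shifted by 0.89. The same Epcam difference is taken from every gene, so the order of these shifts only repeats that of the plain differences.

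Marker levels of other cells were also measured. The 11 mesenchymal markers averaged 4.46 and 4.71 on adult against 5.43 and 4.73 on embryonic arrays. Of them 2 rose (18.2%), Lum (2.43, adjusted p = 0.0100) and Pdgfra (2.19, 0.0133), and 1 fell (9.09%), Thy1 (-1.45, 0.0309). All were above background on all 4 arrays, and over all such genes 42.0% rose and 2.43% fell. The 7 haematopoietic markers, also above background on all 4 arrays, averaged 1.70 and 2.43 against 3.03 and 3.01. Of them 1 rose (14.3%, against the same 42.0%), Lyz2 (2.27, adjusted p = 0.0179), and 0 fell. Of 4 endothelial markers, Esam was at least 14.8-fold and Cdh5 at least 2.70-fold lower (adjusted p = 0.0120 and 0.0119), both dim in embryonic spheres. Kdr, an endothelial marker above background on all 4 arrays, had values of 3.50, 4.25, 4.12 and 4.83 and a difference of 0.60 (adjusted p = 0.268). Ptprc and Cd8a were among the haematopoietic markers not tested.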

How the data were processed

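RNA from 2 adult and 2 embryonic thymosphere samples was measured, 1 array each, and groups were taken from the sample titles. Per the file headers, the spot intensity was extracted by the authors with Agilent Feature Extraction 10.7.3.1, with background subtracted within each array. The deposited value table also holds intensity on a linear scale, and served only as an alternative; its scaling is not stated in the labels or files used here.

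Control and outlier spots were left out, spots of a probe averaged, and each array's 75th percentile over probes was subtracted from the log2 processed signal. Of 55681 probes 28026 (50.3%) were named through RefSeq accessions of GRCm38.p6, which also gave gene order and promoters. Where Krt13 had 2 promoter entries, the first was used. A gene was represented by its tested probe of highest mean signal, probes with 4 values first. The contrast, embryonic minus adult, used limma 3.58.1 under R 4.3.3 (lmFit, eBayes), without covariates, with Benjamini-Hochberg adjustment over 13667 genes, or over 27049 probes for probe values. The scripts were tested on simulated data.

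Members, classes, partner pairs and lists were chosen with earlier results of these data known. Named with values were all keratins that passed, all simple and basal ones, tested members of partner pairs, and up to 4 called members per direction of each other list. Tried as alternatives were quantile normalization, normexp (offset 50), centring on all probes or on tested genes, the deposited table, other filters on dim probes, the mean of probes, an intensity trend or robust prior, outlier spots kept, the replicate block and each array left out; the percentile over all spots and the reading against Epcam were chosen after the data were seen. Normexp used the median spot signal, since no mean signal was among the columns used here.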

Additional observations from a re-analysis of the deposited data

How the results depend on the processing

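None of the 22 keratin calls changed direction: 13 were fitted under all 17 alternatives, and 9, dim in embryonic spheres, under 16, since they fail the filter asking for all 4 arrays. Counts of calls moved more. Against 11 risen keratin genes there were 5 with quantile normalization, 19 with centring on all probes, 4 with centring on tested genes, 7 with the deposited table and 3 without a filter on dim probes, and 0 to 10 with 1 array left out. Against 11 fallen genes there were 6 without the filter, 2 when all 4 arrays had to be well above background, and 0 to 13 with 1 array left out. Against 10 risen probes there were 4, 20 and 5 under quantile normalization and both centrings, 5 without the filter and 0 to 11 with 1 array left out. Against 11 fallen probes there were 7 with normexp, 2 with all 4 arrays required and 0 to 13 with 1 array left out. The counts of 0 arose without an adult array, where the lone sample is assumed to vary like the embryonic ones; 9 risen and 10 fallen keratin genes without adult 1, and 6 and 10 without adult 2, had an unadjusted limma p under 0.05. Otherwise the cause was not tested. The shared replicate numbers did not pair the samples (r = 0.07 over 13405 genes between the differences of numbers 1 and 2 in the groups), and with the replicate block 9 keratin genes rose and 11 fell. Reversals were in uncalled values. Krt10 turned to -0.57 with centring on tested genes and ran from -0.65 to 0.75 with 1 array left out. Krt13 turned to 0.39 with quantile normalization, 0.59 with centring on all probes, 0.39 with the deposited table, 1.18 with the mean of probes, 1.02 with outlier spots kept, and ran from -1.47 to 0.19 with 1 array left out. Krt20 turned to 0.70 with centring on all probes. Krt5 minus Krt15 turned to -0.25 with the mean of probes and ran from -0.11 to 1.24 with 1 array left out, Krt5 minus Krt17 to -0.39 with the mean of probes, and Krt6a minus Krt17 ran from -0.21 to 0.75 with 1 array left out. Signal near background limits the hair keratins: the folds given for those that fell are bounds.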

Other observations

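Cornified envelope genes, which encode the proteins laid down beneath the membrane of dying surface cells of stratified epithelium, included members called in both directions: of 12 tested 4 rose (33.3%, all tested genes 35.0%) and 4 fell (33.3%, all tested genes 17.4%). Sbsn (suprabasin) rose by 3.69 (limma adjusted p = 0.0114), Casp14, a caspase of cornification, by 3.40 (0.0180), Krtdap by 2.65 (0.0127) and Cnfn (cornifelin) by 2.52 (0.0129). Sbsn had values of 1.28, 1.21, 4.17 and 5.70 on adult 1, adult 2, embryonic 1 and embryonic 2, with embryonic 2 highest as for most risen keratins. Ivl (involucrin), a main scaffold of the envelope, fell by 2.83 (adjusted p = 0.0113) and was well above background on 1 embryonic array. Sprr2d, also above background on 1 embryonic array, fell by 2.14 (0.0467), Tchh (trichohyalin) by 1.88 (0.0299, adult 2 missing), and Sprr1b was at least 6.36-fold lower (0.0204).

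Other intermediate filaments were fitted in the same comparison. Of 11 tested 1 rose (9.09%, all tested genes 35.0%) and 4 fell (36.4%, all tested genes 17.4%). Lmnb1, a nuclear lamin, rose by 1.46 (limma adjusted p = 0.0350). Those that fell were the neuronal Nefh (at least 8.7-fold, 0.00984) and Nefm (at least 6.32-fold, 0.00984) and the muscle proteins Des (at least 6.80-fold, 0.0126) and Synm (at least 2.05-fold, 0.0129). All 4 were dim on both embryonic arrays and could pass only as lower. Of the 5 filaments above background on all 4 arrays 1 rose and 0 fell, with a median of 0.80. Over all such genes 42.0% rose and 2.43% fell, with a median of 0.93. Vim, the filament of mesenchymal cells, had values of 5.78, 6.00, 6.22 and 6.44 and a difference of 0.44 (SE 0.30, adjusted p = 0.249).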
